A study of Homo sapiens with 4 samples.

Results

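Circular RNAs spliced from the genes of mitochondrial proteins were followed in human cells with reduced DIS3. They were chosen by the symbol of the host gene, the gene whose exons are joined into the circle. Symbols of respiratory chain and ATP synthase subunits, mitochondrial ribosomal proteins, import channels, RNA and translation factors, calcium uptake proteins, fusion proteins, pyruvate dehydrogenase, fatty acid oxidation and one-carbon enzymes were taken, and no measured value was used. This gave 407 circles from 110 host genes, out of 45182 circles from 8230 host genes in the whole table. The mitochondrial aminoacyl-tRNA synthetases were left out by the rule, with 81 circles from 12 hosts. All of these hosts are nuclear genes, and none of the 407 circles lies on the mitochondrial genome. A symbol rule also takes in genes whose product is not confined to mitochondria, such as MTHFD1, a cytosolic folate enzyme. It further takes in 7 hosts that RefSeq does not list as protein coding, with 18 circles, namely COX10-DT, MRPL45P2, MRPS31P4, MRPS31P5, SDHAP3, SDHAP4 and TIMM23B-AGAP6.

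The cells were Flp-In T-REx 293, an established human embryonic kidney line with a single site for placing inducible transgenes. In DIS3 KD clone 8, with 2 libraries, CRISPR/Cas9 had disrupted the endogenous DIS3 gene. The control also had 2 libraries, and its labels name no such change. Both groups carried an integrated inducible Flag-HA DIS3 transgene, both were grown in blasticidin and hygromycin B, and both were sampled without doxycycline. Some DIS3 remained in the KD cells, and they are a single clone, so an effect of DIS3 cannot be told apart from other features of that clone. The labels call the libraries biological replicates and do not say whether they came from separate cultures, so p-values measure only the spread between these libraries, which may be technical.

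A circular RNA forms when the spliceosome joins the end of a downstream exon back onto the start of an upstream exon, a step called backsplicing. The closed loop has no free ends, so exonucleases that start from an RNA end do not attack it, while endonucleases can open it. DIS3 is the catalytic subunit of the nuclear RNA exosome, with a 3′ to 5′ exonuclease and an endonuclease activity. Mitochondria take nearly all of their proteins from nuclear genes, and the respiratory chain and mitochondrial ribosome combine these with products of the small mitochondrial genome. Many such nuclear genes have promoters with sites for ETS family factors such as GABP, for NRF1 and for YY1.

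A sequence feature that the choice of hosts did not use was the ETS motif in their promoters. The motif CCGGAAG, read on both strands as CCGGAAG or CTTCCGG, lay within 250 bases upstream of the start in 23 of the 87 member hosts with a RefSeq promoter sequence (26.4%). It lay there in 8.82% of all 27305 promoters and in 11.8% of the 15843 promoters of protein-coding genes. The NRF1 motif, GCGC, then any 2 bases, then GCGC, reads the same on both strands and was in 8 of the 87 (9.20%), against 7.58% of all promoters and 10.5% of coding ones. The YY1 motif ATGGCGG or CCGCCAT was in 5 (5.75%), against 2.83% and 3.09%. Both backgrounds include genes that gave no circle in these cells, and the promoters of circle hosts alone were not counted. No overlap between these motifs was looked for. The promoters of 5 of the 10 hosts called in linear RNA follow, chosen as the 3 with an ETS match and, from the 7 without, the host that fell most, FASTKD1, and the host that rose most, MRPS6. They run 5′ to 3′ along the gene, with the ETS motif in capitals. NDUFS1 lies at chr2:206159445-206159694 on the minus strand, MFN1 at chr3:179347459-179347708 on the plus strand, MTIF2 at chr2:55269180-55269429 on the minus strand, FASTKD1 at chr2:169573866-169574115 on the minus strand and MRPS6 at chr21:34073328-34073577 on the plus strand, all from RefSeq on GRCh38.p14.
NDUFS1: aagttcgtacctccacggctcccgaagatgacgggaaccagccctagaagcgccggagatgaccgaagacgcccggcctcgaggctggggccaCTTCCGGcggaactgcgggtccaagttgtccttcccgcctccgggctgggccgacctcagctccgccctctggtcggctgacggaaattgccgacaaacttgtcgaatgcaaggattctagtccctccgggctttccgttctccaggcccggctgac
MFN1: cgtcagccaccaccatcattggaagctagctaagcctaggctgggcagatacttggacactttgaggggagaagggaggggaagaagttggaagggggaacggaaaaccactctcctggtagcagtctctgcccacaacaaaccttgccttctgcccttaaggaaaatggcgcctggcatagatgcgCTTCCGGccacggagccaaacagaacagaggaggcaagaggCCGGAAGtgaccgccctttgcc
MTIF2: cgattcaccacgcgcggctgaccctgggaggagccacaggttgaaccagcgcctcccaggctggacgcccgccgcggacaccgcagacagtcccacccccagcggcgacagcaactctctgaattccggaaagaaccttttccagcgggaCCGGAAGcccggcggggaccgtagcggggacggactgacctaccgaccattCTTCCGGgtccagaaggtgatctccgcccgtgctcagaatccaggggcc
FASTKD1: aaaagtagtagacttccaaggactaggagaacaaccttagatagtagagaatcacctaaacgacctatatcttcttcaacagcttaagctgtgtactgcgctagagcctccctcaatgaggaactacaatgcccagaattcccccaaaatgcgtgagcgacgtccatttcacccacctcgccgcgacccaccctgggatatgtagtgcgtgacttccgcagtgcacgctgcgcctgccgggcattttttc
MRPS6: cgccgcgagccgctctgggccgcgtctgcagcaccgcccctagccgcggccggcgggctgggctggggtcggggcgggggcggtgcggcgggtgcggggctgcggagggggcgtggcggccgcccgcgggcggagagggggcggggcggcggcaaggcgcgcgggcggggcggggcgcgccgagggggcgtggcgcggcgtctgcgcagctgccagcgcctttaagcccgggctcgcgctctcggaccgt
NDUFS1 holds 1 match, MFN1 and MTIF2 hold 2 each, and no match to the ETS, NRF1 or YY1 motif was found in the windows of FASTKD1 and MRPS6. The MRPS6 window is 84.8% G and C, against 50.8% in FASTKD1. A match is a stretch of letters and does not show that a factor binds there.

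The groups differed in sequencing depth. KD replicates 1 and 2 had 165 and 47.9 gigabases mapped, with 352471 and 121507 backsplice reads among them, against 19.6 and 20.4 gigabases with 48895 and 55193 such reads in control replicates 1 and 2. A single read was worth 0.00604 and 0.0209 FPBcirc in the KD libraries, against 0.0511 and 0.0489 in the controls. FPBcirc is the deposited level of a circle, its backsplice reads per gigabase of mapped sequence. The control libraries stood apart from each other. Over 2427 circles, log2 FPBcirc correlated at r = 0.818 between the KD libraries and at r = 0.366 between the controls, across circles that are not independent replicates. DIS3 itself gave 7 and 2 backsplice reads in KD and 0 and 0 in controls, too few to check the knock down. VIM circles were read in KD alone, with 9 and 1 reads against 0 and 0 in controls, and PAX2 had 2 reads in KD replicate 1 alone. The other marker genes looked up, KRT8, KRT18, NEFL, NEFM and LHX1 for the line and PTPRC, CD68, COL1A1, DCN and ALB for other cell types, had no listed circle, which is no measure of their RNA.

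Mitochondrial protein gene circles took a share of backsplice reads that differed between replicates as it did between groups. There were 3268 and 1272 such reads in KD, against 472 and 475 in controls. The share was 0.927% (0.896 to 0.959) and 1.05% (0.990 to 1.11) in KD, against 0.965% (0.881 to 1.06) and 0.861% (0.785 to 0.941) in controls, with exact 95% binomial intervals that cover counting error only. The summed FPBcirc was 19.8 and 26.5 in KD and 24.1 and 23.2 in controls, so the KD libraries lay on either side of the control pair.

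More of these circles were seen in KD libraries, as was so for all circles, in number though not in summed level. At least 1 read was found for 280 and 190 of the 407 circles in KD, against 77 and 91 in controls. Thinned to the mapped gigabases of control replicate 1, with the mean of 20 draws, the numbers were 127 and 132 in KD, against 77.0 and 89.8 in controls. Over all circles they were 13676 and 13813 in KD, against 8357 and 8473 in controls. The thinned libraries held 386 and 515 member reads in KD, against 472 and 454 in controls. Of the 407, 271 were read in KD alone (66.6%, against 69.6% of all circles), 44 in controls alone (10.8%, against 9.75%) and 27 in all 4 libraries (6.63%, against 5.79%). Most were rare, as were most circles of the whole table, with 315 under 10 reads in total (77.4%, against 79.5% of all circles). A single read in total was found for 96 of the 407, beside 11583 of all 45182 circles. Control replicates also missed each other's circles. Of 28 members with at least 5 reads in control replicate 1, 6 had none in control replicate 2 (21.4%, against 33.5% of all circles). Of 30 with at least 5 in replicate 2, 10 had none in replicate 1 (33.3%, against 37.3%). Between the KD libraries thinned to the same depth, the counts were 0 of 13 and 1 of 20. These are 0.0% and 5.0%, against 6.32% and 8.41% of all circles.

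**Figure D1:**
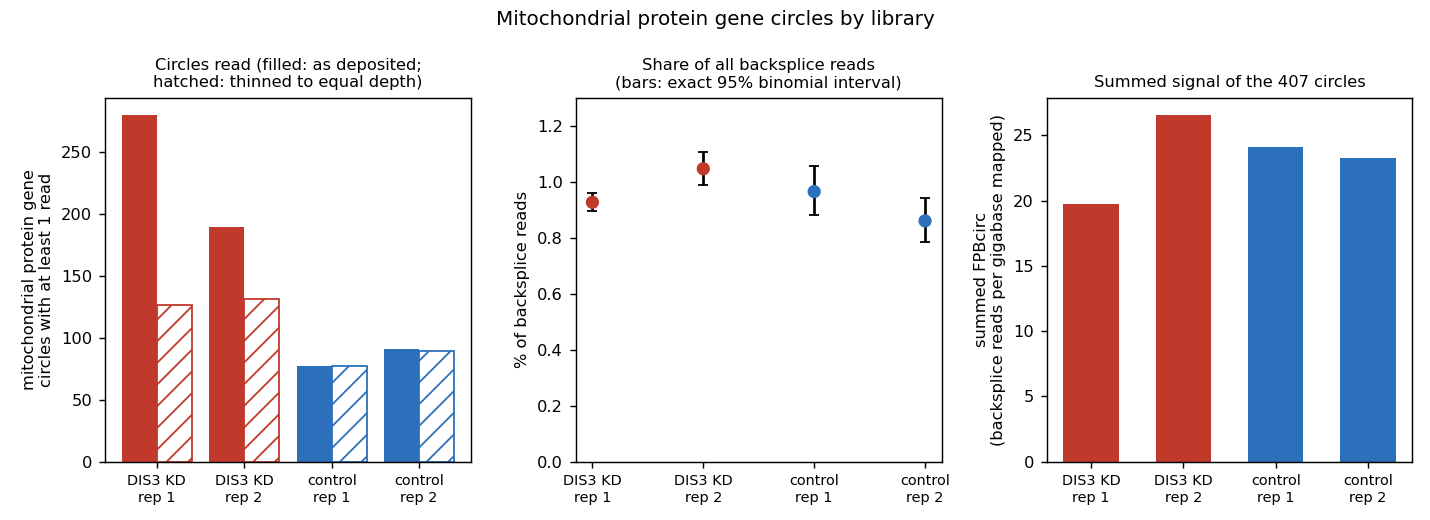
Left, number of mitochondrial protein gene circles with at least 1 read in each library, as deposited (filled bars) and thinned to equal mapped gigabases (hatched bars). Middle, their share of all backsplice reads in percent with exact 95% binomial intervals. Right, their summed FPBcirc in backsplice reads per gigabase mapped. The KD libraries show more of these circles after thinning (127 and 132, against 77.0 and 89.8 in controls), as over all circles (13676 and 13813, against 8357 and 8473), while shares stay between 0.861% and 1.05%.

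The reads came from few hosts. ATP5F1C and NDUFA10 together gave 26.4% of all member reads and the leading 20 hosts gave 81.1%. Circles spanned 111 to 131468 bases of the genome with a median of 8183, against 9919.5 for all circles. A single circle was listed for 48 of the 110 hosts (43.6%), against 29.2% of all hosts. Among the 359 circles from hosts with several, 315 shared a backsplice end with another circle of that host (87.7%, against 86.6% of all circles), so circles of a host are not independent of each other. MTHFD1L and MTHFD1 had 27 circles each, NDUFS1 had 18, ACAD10 had 16, and PDK1 and ACAD11 had 13 each. Of the 407, 398 lay inside the RefSeq gene of their host and 8 did not, and the host of the last was not matched.

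By role, complex I subunits and assembly factors summed to 3.80 and 5.07 FPBcirc in KD and 6.19 and 3.42 in controls, from 58 circles of 15 hosts. They were highest in 3 of the 4 libraries, and ATP synthase was in control replicate 2, where the leading NDUFA10 circle had 0 reads. ATP synthase subunits had 3.47 and 4.22 in KD and 4.09 and 4.40 in controls. Hosts with import symbols had 2.30 and 3.97 in KD and 2.35 and 2.79 in controls. Of this, TIMMDC1, an assembly factor of complex I by function, made up 1.10 and 2.05 in KD and 1.18 and 1.52 in controls. In these 3 roles the KD and control values overlapped. One-carbon enzymes, which carry single carbon units on folate, had 67 circles and summed to 2.36 and 2.67 in KD and 3.02 and 2.20 in controls. The proteins of the small ribosomal subunit summed to 1.21 and 1.23 in KD and 0.511 and 0.440 in controls. The 2 FASTKD hosts summed to 0.254 and 0.772 in KD and 2.25 and 2.15 in controls. These last 2 roles did not overlap between groups, and each rests mainly on a single host, MRPS35 and FASTKD1. Complex III did not overlap either, at 0.139 and 0.230 in KD and 0.102 and 0.0978 in controls, from 5 circles. All other roles overlapped. No test was run on a role.

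Levels were compared circle by circle with limma on log2(FPBcirc + 0.0349), where 0.0349 is the median over the 4 libraries of the value of 1 read. It lies above the value of 1 read in both KD libraries (0.00604 and 0.0209) and below it in both controls (0.0511 and 0.0489). Of the 407 members, 29 passed the abundance filter, a mean of at least 0.174 FPBcirc. None of the 29 was called at a Benjamini-Hochberg adjusted p under 0.05, against 0.536% of all 2427 circles tested, of which 0.0824% higher and 0.453% lower in KD. At an unadjusted p under 0.05 there were 5 of 29 (17.2%), against 19.1% of all. By edgeR on the recovered reads none was called, and by DESeq2 MRPS35 was higher and a FASTKD1 circle lower. The KD and control values did not overlap for 14 of the 29 (48.3%), 3 higher and 11 lower in KD, against 54.7% of all tested, 16.2% higher and 38.4% lower. A log2 fold change above 0 was seen in 14 of the 29, against 40.4% of all tested. The median log2 fold change of the 29 was -0.02, against -0.33 over all tested. Centring each library on its median moved the median of all tested up by 0.49, so a fall smaller than this is one only on the FPBcirc scale. The calls over the whole table were 2 higher and 11 lower, 1 higher and 0 lower after centring as well as by edgeR, and 173 higher and 65 lower by DESeq2, which changes both the test and the scaling. A member could pass the filter through the group in which it was high, so these counts describe only the members that passed.

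**Figure D2:**
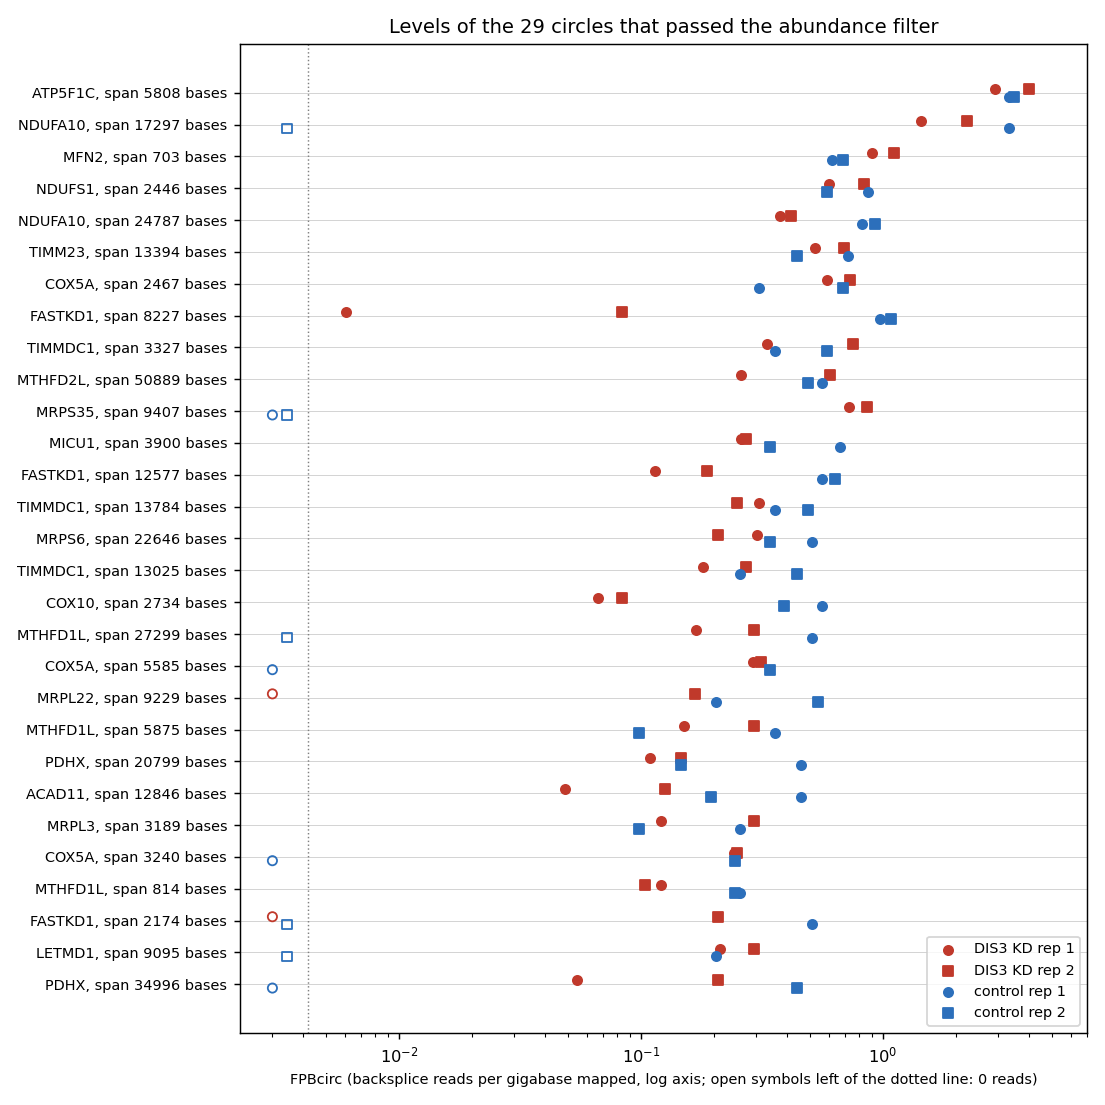
FPBcirc of the 29 circles that passed the abundance filter, on a log axis, in order of mean level; red symbols are the 2 KD libraries and blue symbols the 2 controls, and open symbols left of the dotted line mark 0 reads. ATP5F1C is highest in all 4 libraries or level with NDUFA10, FASTKD1 with a span of 8227 bases lies lower in KD, and MRPS35 has 0 reads in both controls.

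The most abundant of these circles came from the respiratory chain and ATP synthase. The ATP5F1C circle at chr10:7797047-7802854 comes from the gene of the gamma subunit, the central stalk of ATP synthase. It had 2.91 and 4.01 FPBcirc in KD, against 3.32 and 3.47 in controls. Both controls lay between the KD values, and the log2 fold change was 0.01 (SE 0.30, adjusted p 0.989). In 3 of the 4 libraries it was the only circle of its host.

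NDUFA10, an accessory subunit of complex I, gave 11 circles, of which 6 share the end at chr2:239990074. The leading circle at chr2:239990074-240007370 had 1.44 and 2.23 FPBcirc in KD, against 3.32 and 0 in controls. That is 238 and 107 reads in KD, against 65 and 0 in controls, so a single control library decides its value. The log2 fold change was 2.42 (SE 2.09, adjusted p 0.541), and -0.88 without control replicate 2. The circle at chr2:239990074-240014860, with the same end, was read in both controls, with 0.375 and 0.417 FPBcirc in KD, against 0.818 and 0.929 in controls. It lay lower in both KD libraries, but the change of -1.08 (SE 0.42) did not pass, with an adjusted p of 0.227. A still longer circle, at chr2:239990074-240022340, had 37 and 11 reads in KD and 0 and 0 in controls. Its KD mean was 3.02-fold a floor of 3 reads over both controls (0.0750 FPBcirc). Such ratios allow for counting error only in the group with 0 reads and take the mean of the other group as exact. They leave out the spread between controls, in which circles with the same end had 65 and 0 or 16 and 19 reads.

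NDUFS1, the largest core subunit of complex I, holds iron-sulfur clusters that pass electrons. Its main circle at chr2:206127797-206130242 had 0.598 and 0.835 FPBcirc in KD, against 0.869 and 0.587 in controls. The groups interleaved, and the log2 fold change was -0.02 (SE 0.43, adjusted p 0.986). Its sign turned with the scaling, at 0.48 after centring each library on its median. COX5A, a subunit of cytochrome c oxidase, had 3 tested circles built from 2 starts and 2 ends. The circle at chr15:74926766-74929232 had 0.586 and 0.730 in KD, against 0.307 and 0.685 in controls. The other 2, at chr15:74923648-74929232 and chr15:74923648-74926887, had 0.290 and 0.313 and 0.242 and 0.250 in KD, against 0 and 0.342 and 0 and 0.245 in controls. Control replicate 1 was the low library each time, and none passed the test.

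COX10 makes the heme O needed to assemble complex IV. Its circle at chr17:14074323-14077056 had 0.0665 and 0.0835 FPBcirc in KD, against 0.563 and 0.391 in controls. Both KD values lay below both controls, with a log2 fold change of -2.20 (SE 0.73, adjusted p 0.176).

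Among import and membrane genes, no circle passed the test. TIMM23, the channel of the inner membrane, had a circle at chr10:45975454-45988847 with 0.526 and 0.689 FPBcirc in KD, against 0.716 and 0.440 in controls, and a log2 fold change of 0.09 (SE 0.46, adjusted p 0.930). TIMM23B is a near-identical copy. Its circles at chr10:49952126-49958480 and chr10:49945032-49958480 had 26 and 23 and 29 and 17 reads in KD, and none in controls. Their KD means were 4.25-fold and 3.53-fold the floor of the controls, and 2.09-fold and 2.34-fold from KD replicate 1 alone. The spans of the copies nearly match, 13449 bases in TIMM23B and 13394 in TIMM23, and 6355 and 6325 bases. Reads shared by the copies could have been split between them, so both are uncertain. MFN2, a GTPase that fuses outer membranes, had 0.901 and 1.11 in KD, against 0.614 and 0.685 in controls, at chr1:12001401-12002103. Both KD values were the higher ones, but the change of 0.60 (SE 0.38) did not pass, with an adjusted p of 0.398. TIMMDC1 had 7 circles read in each KD library, against 5 and 3 in controls. Its most abundant circle at chr3:119500695-119504021 had 0.332 and 0.751 in KD, against 0.358 and 0.587 in controls, with a log2 fold change of 0.12 (SE 0.56, adjusted p 0.923). A longer circle from that start, to base 119517315, had 20 and 20 reads in KD and none in controls.

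FASTKD1 belongs to a family of mitochondrial RNA-binding proteins, and the tested circle with the lowest fold change is one of its circles. The circle at chr2:169555124-169563350 had 0.00604 and 0.0835 FPBcirc in KD, against 0.972 and 1.08 in controls. That is 1 and 4 reads in the deeper KD libraries, against 19 and 22 in the controls. Both KD values lay below both controls. The log2 fold change of -3.93 (SE 0.77) came with an adjusted p of 0.0713, which misses the threshold. It passed in 6 of 12 other settings, with values from -4.69 to -2.69 and adjusted p between 0.000930 and 0.614. The circle at chr2:169544721-169557297 had 0.115 and 0.188 in KD, against 0.563 and 0.636 in controls, with a change of -1.79 (SE 0.59, adjusted p 0.172). Another, at chr2:169555124-169557297, had 0 and 10 reads in KD, against 10 and 0 in controls, and so showed no common direction.

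The 12 FASTKD1 circles use 6 start and 4 end positions. Each KD library read 7 of them and each control 5. The circle that led in both controls, with 43.2% and 50.0% of the host's reads, was rare in KD. In KD replicate 1 the circle from 169544721 to 169557297 led, with 48.7% of reads. The shorter circle from 169555124 had 29.4% of reads in KD replicate 2. It was barely ahead of the circle from 169544721 there, at 0.209 against 0.188 FPBcirc, so no change of leader can be read from it.

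**Figure D3:**
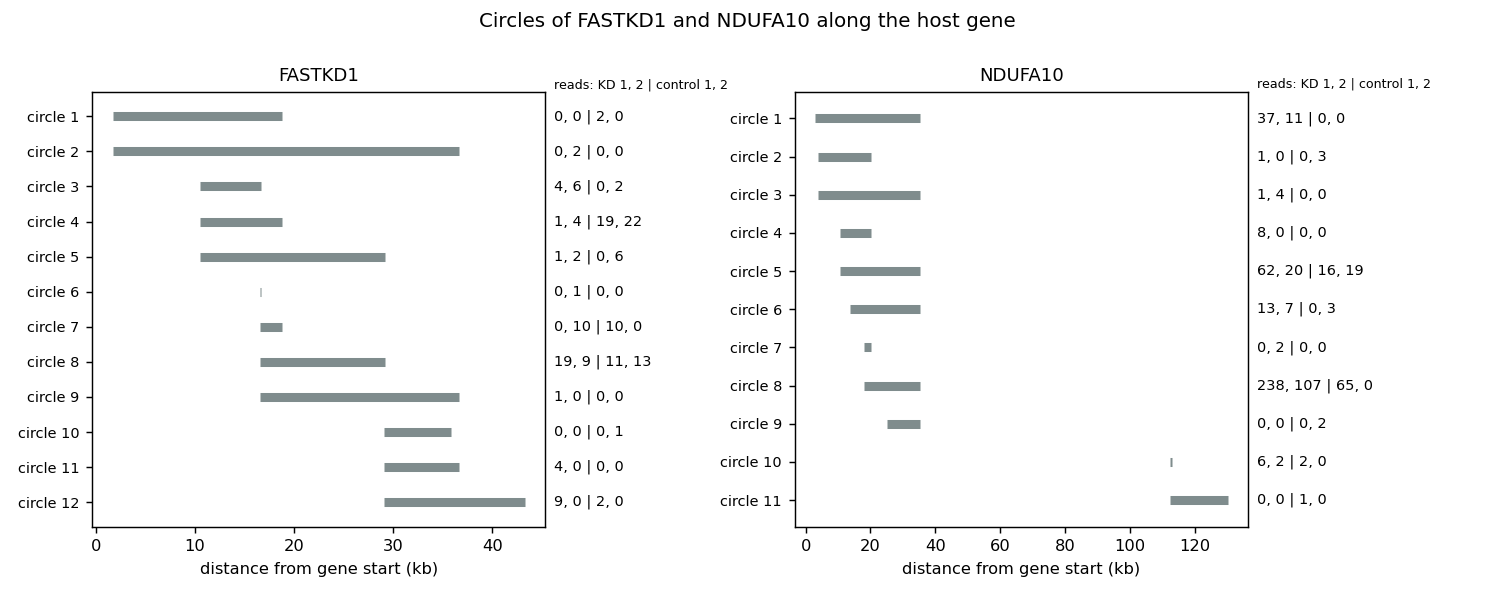
Position of each circle of FASTKD1 (left) and NDUFA10 (right) as a grey bar along the gene, in kilobases from the gene start, with its reads in KD 1 and 2 and control 1 and 2 beside it. The FASTKD1 circle with 1 and 4 reads in KD had 19 and 22 in controls, and the NDUFA10 circle with 238 and 107 reads in KD had 65 and 0 in controls.

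Mitochondrial ribosomal genes gave few circles that could be tested. MRPS35, a protein of the small subunit, had a circle at chr12:27714780-27724186 with 0.725 and 0.856 FPBcirc in KD and 0 and 0 in controls. That is 120 and 41 reads in KD, with a mean 10.5-fold the floor of 3 reads over both controls. The floor allows for counting error in the controls only. The fitted log2 fold change of 4.56 (SE 1.22) depends on the pseudocount and had an adjusted p of 0.126, and it passed in 5 of 12 other settings, with adjusted p between 2.08e-05 and 0.884. MRPL22, of the large subunit, had 0 and 0.167 in KD, against 0.205 and 0.538 in controls, at chr5:154950821-154960049, with an adjusted p of 0.399. MRPL4 had a circle of 464 bases at chr19:10258222-10258685 with 37 and 7 reads in KD and none in controls. In all, 54 member circles were read in both KD libraries and in neither control. This pattern made up 13.3% of members, against 12.9% of all circles. A mean above the floor was found for 17 of the 54, and such circles were not counted over the whole table. The KD libraries were also deeper, so the 17 are a description only.

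Among metabolic genes, circles of the one-carbon enzymes were the most numerous. MTHFD2L, a mitochondrial folate dehydrogenase, had 0.260 and 0.605 FPBcirc in KD, against 0.563 and 0.489 in controls, at chr4:74174506-74225394, and the change of -0.37 (SE 0.55) had an adjusted p of 0.724. Its sign turned to 0.13 after median centring. MTHFD1L, the mitochondrial formyltetrahydrofolate synthetase, had a circle at chr6:151009819-151037117 with 0.169 and 0.292 in KD, against 0.511 and 0 in controls. Its log2 fold change was 0.90, and -1.08 without control replicate 2. A second MTHFD1L circle, at chr6:150905650-150972058, was the single member of 407 read in both controls and in neither KD library. Over all circles this pattern was seen in 156 of 45182. The MTHFD1L circle had 0 and 0 reads in KD and 3 and 11 in controls. Its control mean was 24.6-fold a floor of 3 reads over both KD libraries (0.0141 FPBcirc). The floor allows for counting error in KD only, and the 3 and 11 control reads were taken as exact. From control replicate 1 alone the ratio was 10.9-fold, and from control replicate 2 alone 38.3-fold. Another MTHFD1L circle with the same end, at chr6:150944486-150972058, had 3 and 4 reads in KD and 0 and 0 in controls. Its KD mean was under the floor of the controls. ACAD11, of the acyl-CoA dehydrogenase family, had 0.0484 and 0.125 in KD, against 0.460 and 0.196 in controls, at chr3:132618634-132631479 (adjusted p 0.407). LETMD1, named after a LETM1 domain, had 0.212 and 0.292 in KD, against 0.205 and 0 in controls, at chr12:51049034-51058128 (adjusted p 0.544).

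Summing all circles of a host counted every read, and 26 of the 110 member hosts passed the filter. A host could pass through the group in which it was high, so the counts below describe only the hosts that passed. A single host was called, FASTKD1, lower in KD, or 3.85% of the 26, against 3.55% of all 2393 hosts tested, of which 1.38% higher and 2.17% lower. Over all hosts that was 33 higher and 52 lower, against 39 and 27 by edgeR and 118 and 116 by DESeq2. The summed FASTKD1 circles had 0.236 and 0.710 FPBcirc in KD, against 2.25 and 2.15 in controls. The means were 0.473 ± 0.335 in KD and 2.20 ± 0.0690 in controls (SD, n = 2 each), and the log2 fold change was -2.32 (SE 0.52, adjusted p 0.0301 by limma). Leaving out KD replicate 1 or 2 gave -1.59 or -3.05 with adjusted p 0.717 or 0.216, so the call was lost without either. It was also lost with median centring (adjusted p 0.0627) and by edgeR (-2.07, adjusted p 0.0628).

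No host was called higher in the summed test. MTHFD1 came closest, with 0.864 and 0.710 FPBcirc in KD, against 0 and 0.147 in controls. Its 27 circles gave 143 and 34 reads in KD over 19 and 12 circles, against 0 and 3 reads in controls, the 3 from a single circle. The log2 fold change was 3.36 (SE 0.95, adjusted p 0.0657), and DESeq2 called it with an adjusted p of 0.0109. Leaving out a library gave 2.17 to 4.55 with adjusted p up to 0.928, and 5 of 12 other settings passed. MRPS35 summed to 0.768 and 0.856 in KD and 0 and 0 in controls (adjusted p 0.0704, and 0.0268 by edgeR). TIMM23B summed to 0.369 and 0.877 in KD, against 0.102 and 0.196 in controls (adjusted p 0.225), and LETMD1 to 0.363 and 0.480, against 0.205 and 0 (adjusted p 0.315). MTHFD1, MRPS35, TIMM23B and LETMD1 had control means below the filter and passed it only through their KD values. Their p-values and passing settings are therefore no independent support for a rise. On the low side COX10 had 0.109 and 0.125 in KD, against 0.563 and 0.391 in controls (adjusted p 0.260). NDUFAF6, a complex I assembly factor, had 0.0363 and 0.0417 in KD, against 0 and 0.636 in controls, and its log2 fold change of -1.05 turned to 1.08 without control replicate 2. The groups did not overlap for 11 of the 26 hosts (42.3%), 5 higher and 6 lower in KD, against 51.3% of all, 21.2% higher and 30.1% lower. Of the 26, 13 were above 0 on the log2 scale, against 48.0% of all, an unadjusted p was under 0.05 in 5, against 18.5% of all, and the median log2 fold change was -0.07, against -0.06 over all.

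The CIRCscore is the deposited ratio of a circle's FPBcirc to the linear signal of its host. It exists only where the circle was read, and 20 member circles had it in all 4 libraries after the filter. None was called, against 0.11% of all 1823 tested, 0.0% higher and 0.11% lower in KD. At an unadjusted p under 0.05 there were 4 of 20, against 20.8% of all. The groups did not overlap for 9 of the 20, 2 higher and 7 lower in KD, against 54.3% of all, 11.6% higher and 42.6% lower. Above 0 on the log2 scale were 8 of 20, against 29.5% of all. The median log2 fold change was -0.16, against -0.42 over all tested. The lowest were again FASTKD1 and COX10, joined by MRPS6. The FASTKD1 circle with a span of 8227 bases scored 0.0135 and 0.0461 in KD, against 0.156 and 0.176 in controls, a log2 fold change of -2.50 (SE 0.60, adjusted p 0.144). The FASTKD1 circle with a span of 12577 bases scored 0.105 and 0.0975 in KD and 0.0910 and 0.105 in controls, a change of 0.05 (SE 0.41, adjusted p 0.953). COX10 scored 0.0141 and 0.0131 in KD, against 0.114 and 0.0652 in controls, with a change of -2.33 (SE 0.48, adjusted p 0.142). The MRPS6 circle at chr21:34102835-34125480 scored 0.0174 and 0.0116 in KD, against 0.0601 and 0.0851 in controls, with a change of -2.02 (SE 0.46, adjusted p 0.143). On the high side were MFN2 (0.88, adjusted p 0.303), NDUFS1 (0.75, adjusted p 0.397) and an MTHFD1L circle at chr6:151009819-151015693 (0.62, adjusted p 0.537), none past the threshold.

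Linear RNA of the hosts gave the most calls. FPBlinear was derived from the CIRCscore and FPBcirc, once for each host and library, and 29 member hosts had it in all 4 libraries. Of these, 2 were called higher and 8 lower in KD, together 34.5%, against 35.6% of all 2547 hosts tested, 11.3% higher and 24.3% lower. The share of members called was thus near that of all hosts, and the median log2 fold change was -0.34, against -0.17 over all. The groups did not overlap for 20 of the 29 hosts, 4 higher and 16 lower in KD, against 70.7% of all, 25.6% higher and 45.1% lower. There were 9 of 29 above 0 on the log2 scale, against 38.1% of all, and an unadjusted p was under 0.05 in 13, against 44.4% of all. Centring moved the median of all hosts up by 0.16 and the calls to 552 higher and 583 lower (48.6% higher, against 31.7% as deposited), with 4 members higher and 7 lower. Values of linear RNA are FPBlinear, and their fold changes are on the log2(FPBlinear + 1.16) scale.

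FASTKD1 fell most, at 1.18 and 2.02 in KD, against 6.28 and 6.17 in controls. Its means were 1.60 ± 0.594 in KD and 6.23 ± 0.0805 in controls (SD, n = 2 each), with a log2 fold change of -1.44 (SE 0.20, adjusted p 5.13e-11 by limma). It passed under all 11 alternative settings tried. PDK1, a kinase that switches off pyruvate dehydrogenase, fell to 5.23 and 6.84 in KD, against 12.1 and 13.8 in controls (-0.97, SE 0.23, adjusted p 0.000250). NDUFS1 fell to 18.6 and 24.9 in KD, against 37.5 and 43.7 in controls (-0.87, SE 0.26, adjusted p 0.00403). MTIF2, the initiation factor of mitochondrial translation, fell to 7.46 and 10.1 in KD, against 15.8 and 17.3 in controls (-0.85, SE 0.24, adjusted p 0.00223).

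The one-carbon enzymes did not move as a group. MTHFD1L had 13.4 and 15.5 in KD, against 24.2 and 27.0 in controls (-0.78, SE 0.25, adjusted p 0.00934). MTHFD2, a mitochondrial folate dehydrogenase and cyclohydrolase, had 58.2 and 78.9 in KD, against 114 and 108 in controls (-0.70, SE 0.25, adjusted p 0.0180). Its paralog MTHFD2L had 2.68 and 2.71 in KD, against 1.18 and 1.47 in controls, and rose by a log2 fold change of 0.64 (SE 0.17, adjusted p 0.000992). MFN1, a GTPase of outer membrane fusion, had 6.07 and 8.49 in KD, against 10.9 and 12.6 in controls (-0.62, SE 0.23, adjusted p 0.0254). MTRF1, a release factor, had 1.20 and 1.72 in KD, against 1.93 and 2.61 in controls (-0.39, SE 0.16, adjusted p 0.0480). In each of these hosts the KD and control values did not overlap.

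MRPS6, a protein of the small ribosomal subunit, rose most. It had 17.9 and 18.8 in KD, against 8.67 and 4.13 in controls, with means of 18.4 ± 0.639 in KD and 6.40 ± 3.21 in controls (SD, n = 2 each). The log2 fold change was 1.44 (SE 0.23, adjusted p 6.17e-08). The coding gene SLC5A3 overlaps MRPS6, and the sources used here do not say how linear reads were assigned to overlapping genes, so reads of these genes cannot be told apart. MTHFD2 overlaps SLC4A5 and MTRF1 overlaps NAA16 in the same way.

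Most linear calls needed both controls. With control replicate 1 or 2 left out, 3 or 2 members were called instead of 10, and besides FASTKD1 every called host lost its call in at least 1 of the 4 leave-outs. The standard errors draw mostly on the spread shared over all hosts, since each group has 2 libraries. An exact permutation test of a single host cannot give a p below 0.333 here. Complex I and IV subunits outside NDUFS1 stayed short of the threshold, with NDUFB2 at 100 and 91.8 in KD, against 60.7 and 71.5 in controls (adjusted p 0.0811), and COX5A at 112 and 149 in KD, against 122 and 114 in controls (adjusted p 0.706). A lower value in these bulk libraries does not tell fewer cells with an RNA apart from less RNA per cell.

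**Figure D4:**
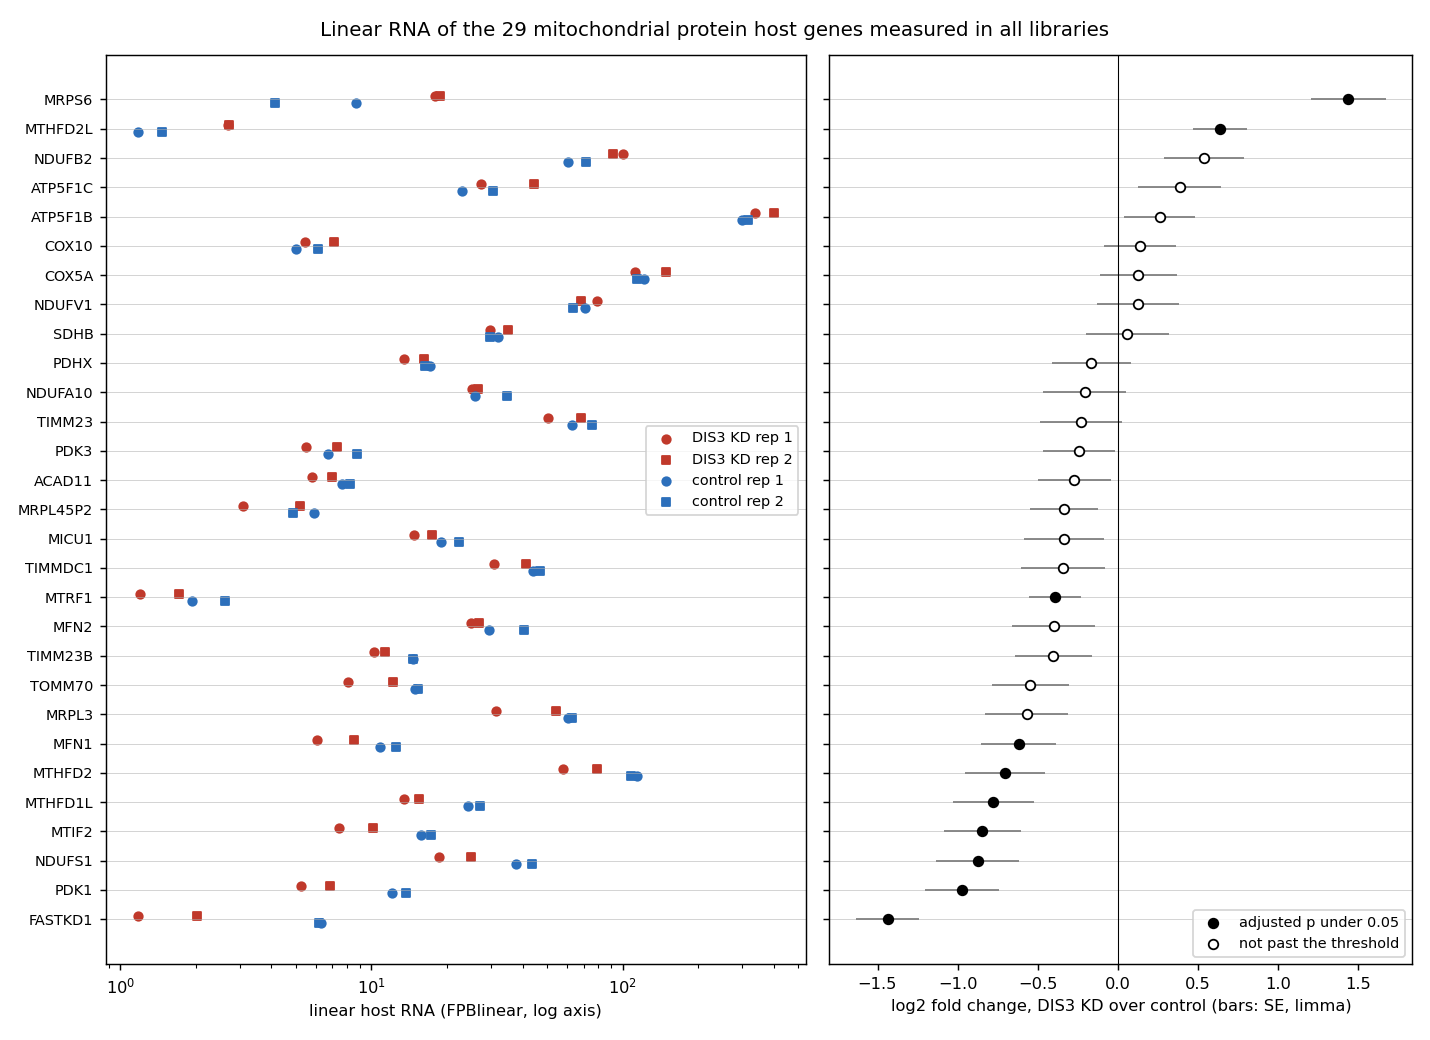
Left, FPBlinear of the 29 host genes with a value in all 4 libraries, on a log axis, with KD libraries in red and controls in blue. Right, log2 fold change of KD over control with its standard error from limma, filled where the adjusted p was under 0.05. MRPS6 and MTHFD2L lie highest at 1.44 and 0.64, and FASTKD1 lowest at -1.44.

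Among the called hosts, the promoters of MFN1, MTIF2 and NDUFS1 hold the ETS motif, so it was in 3 of the 8 hosts whose linear RNA fell and in 0 of the 2 that rose, against 23 of 87 member promoters. MTHFD2 was the single called host with the NRF1 motif. These counts are a description of few genes.

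Circles and linear RNA of a host had fold changes of the same sign in 9 of 21 hosts. In these 21 hosts both the summed circles and the linear RNA had been tested. Both log2 fold changes were below 0 in 7 hosts and above 0 in 2, the circles were lower and linear RNA higher in 4, and the reverse held in 8. Across hosts r was 0.0844 and Spearman's rho -0.0766, and r was -0.234 without FASTKD1, a description over hosts that share the same libraries. FASTKD1 was the host lowest in both, at -2.32 for circles and -1.44 for linear RNA. MRPS6 had circles at 0.302 and 0.271 FPBcirc in KD, against 0.511 and 0.391 in controls, a change of -0.59 that did not pass (adjusted p 0.638), beside the rise of its linear RNA by 1.44. NDUFS1 circles stayed at -0.17 (adjusted p 0.869) beside a fall of linear RNA by 0.87.

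**Figure D5:**
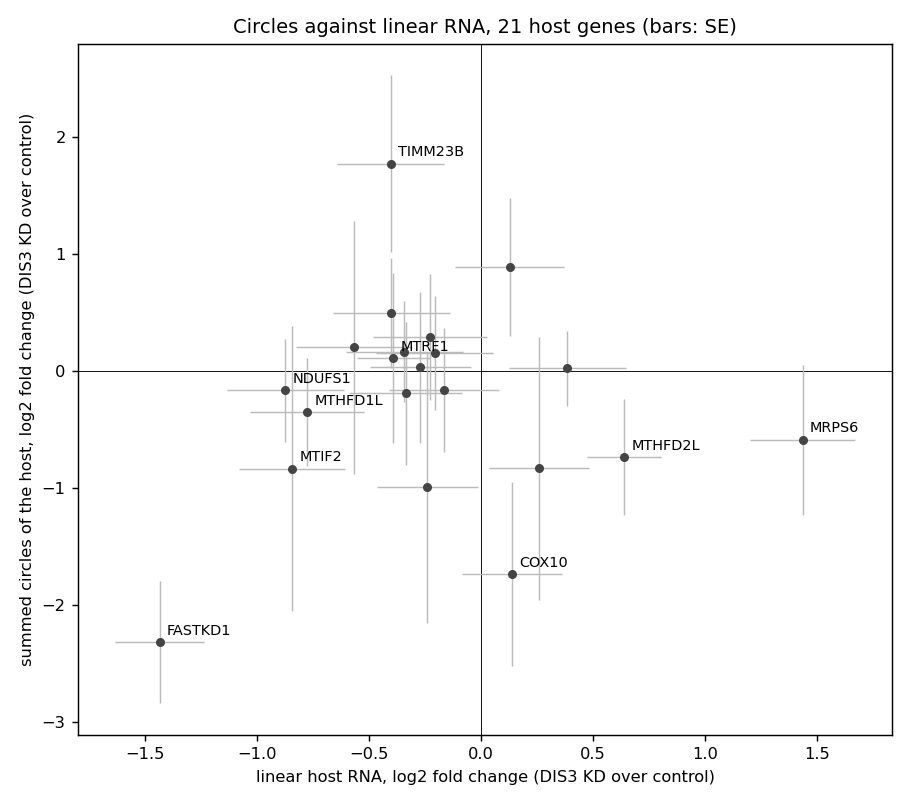
Log2 fold change of KD over control of linear RNA (x axis) and of the summed circles (y axis) for 21 host genes, with standard errors from limma as bars. FASTKD1 lies at the lower left (-1.44 and -2.32), MRPS6 at the right (1.44 and -0.59) and TIMM23B at the top (-0.40 and 1.77).

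Other mitochondrial genes outside the symbol rule were read from 7 neighbouring lists of 164 genes, of which 126 had a circle. Of 42 circles tested in FPBcirc and 29 in CIRCscore, 0 were called. Summed circles were called lower in 3 of 42 hosts, beside 2.17% of all hosts, with LRPPRC (-2.01, adjusted p 0.00629), which stabilises mitochondrial mRNA, and PCCA (-1.88, adjusted p 0.0396), of propionyl-CoA carboxylase, among them. Linear RNA was called in 14 of 45 hosts, 2 higher and 12 lower in KD, beside 11.3% higher and 24.3% lower of all hosts, so the short list counts that follow are a description. Both that rose were synthetases of the list of 8 tested, SARS2 with 26.6 and 20.9 in KD, against 10.8 and 13.9 in controls, and NARS2 with 3.89 and 5.23, against 3.17 and 2.25. Genes of mitochondrial RNA and genome expression fell in 3 of 7, with LRPPRC at 20.5 and 28.6 in KD, against 50.8 and 51.6 in controls. Chaperones and proteases fell in 4 of 8, with the chaperone HSPA9 at 67.1 and 85.4 in KD, against 130 and 165 in controls. Carriers fell in 2 of 3, the citrate cycle list in 1 of 4, other catabolism in 2 of 10, and division and mitophagy in 0 of 5.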

How the data were processed

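Total RNA of 4 libraries, 2 of DIS3 KD clone 8 and 2 of the control, was rRNA-depleted and prepared with a strand-keeping kit, per the labels' protocols. bcl2fastq 2.20, Bowtie2 2.3.5 and build hg38 are named in the submitters' processing notes. No source names the circRNA caller or whether counting used strand. The deposited FPBcirc is a signal per circle, backsplice reads per gigabase mapped, as the file headers and values show. As deposited by the authors, CIRCscore is a ratio, FPBcirc over the host's linear signal, and the authors' deposited fold change, a ratio of group means, was not used. All FPBcirc values (100%) came out as whole multiples of 1 read within 0.001 of a read, which gave reads and depth. FPBlinear was computed as (FPBcirc + 0.01) / CIRCscore - 0.01, left 0 negative values, and was a single value in 99.9% of cases where a host had several circles in a library. Of the lines deposited, 7 were empty of values.

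KD was set against control on the scale log2(value + pseudocount) by limma 3.58.1 (R 4.3.3), two-sided, with variance trend and robust moderation. Fits used the whole table, and a call needed a Benjamini-Hochberg adjusted p under 0.05. Such fold changes understate the change of low values. Pseudocounts were 0.0349 for FPBcirc and its host sums, 0.00448 for CIRCscore and 1.16 for FPBlinear, the last 2 being percentile 5 of the values. Circles and hosts were kept at a mean of at least 5 times 0.0349. CIRCscore and FPBlinear needed a value in all 4 libraries. In simulated reads with 200 changed features the FPBcirc test recovered 90% or 54% of them at dispersions of 0.05 or 0.5. The linear test was run on simulated log2 values, not reads, with normal noise of SD 0.25, and recovered 99%. These shares hold only for changes of the simulated size, which is not given here. They do not measure how often smaller changes would be recovered. Host genes were matched to RefSeq by symbol, 109 of 110, with 87 promoter sequences. No genome sequence was used here, so circles are given by their hg38 positions counted from 1.

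The members were taken by symbol and no measured value entered the rule, but the rule and gene lists were chosen with earlier results of these data known. The text names the members past the threshold, the 10 highest in mean FPBcirc, the 6 largest and 6 smallest fold changes of FPBcirc, the 5 hosts with the most circles, the leading circles with 0 reads in a group, the 3 largest and 3 smallest changes of CIRCscore, and the 4 largest and 4 smallest changes of host sums. Other settings tried were a replicate block, each library left out in turn, smaller and larger pseudocounts, looser and stricter filters, median centring, limma without trend, and read-based tests with edgeR 4.0.16 or DESeq2 1.42.0. Same-numbered libraries did not deviate together (correlation 0.00289 for FPBcirc and 0.0652 for FPBlinear), and the labels name no shared batch, so the main fit had no block. The values of 1 host gene of the neighbouring lists are not reported here.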

Additional observations from a re-analysis of the deposited data

How the results depend on the processing

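Counts are of members called, with the count over the whole table after it. For FPBcirc (0 of 29, and 13 in all) the other settings gave 1 and 134 with the replicate block, 0 and 1 with the smaller pseudocount as well as after median centring, 2 and 45 with the larger one, 0 and 0 without trend and robust moderation, 2 and 109 with no filter, 0 and 138 with a filter at 20 times the value of 1 read, 0 and 1 by edgeR, and 2 and 238 by DESeq2. Leaving out each library in turn gave 0 to 7 and 0 to 761. The members' median log2 fold change of -0.02 became 0.48 after centring, 0.30 with no filter and with the stricter one, 0.29 by edgeR and 0.28 by DESeq2, and ranged from -0.46 to 0.24 over the leave-outs.

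For CIRCscore (0 of 20, and 2) the block gave 0 and 9, the larger pseudocount 0 and 1, centring and plain limma 0 and 0, a minimum of 5 reads in every library 1 and 107 (MRPS6), and the leave-outs 0 to 4 and 8 to 285. The median of -0.16 became 0.32 after centring.

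For linear RNA (10 of 29, and 906) the leave-outs gave 2 to 13 and 302 to 1218, with a median of -0.45 to -0.16 around -0.34. The replicate block gave 14 and 1210, and the pseudocount of the FPBcirc test, chosen after seeing the data, gave 9 and 880.

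For summed circles (1 of 26, and 85) the block gave 3 and 215, the larger pseudocount 3 and 135, centring 0 and 65, plain limma and no filter 0 and 0, the stricter filter 1 and 172, DESeq2 3 and 234, and the leave-outs 0 to 7 and 0 to 614. Where 3 were called they were FASTKD1, MRPS35 and MTHFD1. Circles seen in KD replicate 1 went from 280 to 127 on thinning. Keeping the aminoacyl-tRNA synthetases other than QARS2 and VARS2, which the rule names, would give 487 members.

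The sign turned for the NDUFS1 circle at 206127797 (0.48 after centring, 0.61 by edgeR and by DESeq2) and the MTHFD2L circle (0.13, 0.29 and 0.28). On leaving out a library values spanned 0 for ATP5F1C (-0.22 to 0.24), the leading NDUFA10 circle (-0.88 to 5.71), NDUFS1 (-0.29 to 0.25), TIMM23 (-0.24 to 0.42), COX5A (-0.062 to 1.01 from 74926766 and -0.17 to 3.27 from 74923648), TIMMDC1 (-0.43 to 0.67), MTHFD2L (-0.92 to 0.19), MTHFD1L (-1.08 to 2.89) and the summed NDUFAF6 (-3.18 to 1.08). None was called with all libraries, and the cause was not tested. Of 496 values of single circles and hosts under other settings, 403 kept direction and side of the threshold, and 20 reversed sign. A value not called in the main fit that stayed uncalled in the same direction is among the 403. Of the counts and medians over sets under other settings, 67 moved and 79 did not. Replicate numbers pair no libraries here, so the block is a hint only. Control depth limits these results, since 3 reads over both controls equal 0.0750 FPBcirc.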
